A study of Homo sapiens with 8 samples.

Results

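The genes described here encode the enzymes that place methyl groups on histone lysines, together with the flavin-dependent demethylases of the LSD class, 36 genes in all out of 24077 genes present in the tables of both time points. They were found by symbol, and each of the 36 was present and passed the filter on low counts, so no member is missing from any test. RNA was sequenced from AML-OCI3, an established human acute myeloid leukaemia line, after JIB-04 at 40 nM for 24 h, DMSO (the vehicle) for 24 h, JIB-04 at 40 nM for 48 h, and DMSO for 48 h. Each of the 4 groups had 2 libraries, 8 in all, and all came from 1 cell line without any genetic change named in the labels. The labels do not say whether the 2 libraries of a group came from separate cultures, so p-values refer to the spread between these libraries alone, and that spread may be technical. Because the RNA is bulk, fewer cells expressing a gene and less of its RNA per cell cannot be told apart.

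Histone lysine methylation is written by SET-domain enzymes, and by DOT1L, which lacks a SET domain. Methylation of lysine 4 and lysine 36 of histone H3 and of lysine 79 accompanies transcription, whereas methylation of lysine 9 and lysine 27 accompanies silencing, and methylation of H4 lysine 20 accompanies cell division and heterochromatin. The marks are removed by the Jumonji (JmjC) demethylases, which JIB-04 inhibits, and by KDM1A and KDM1B, which use a flavin cofactor and form a separate enzyme class. Several of the genes have a history in myeloid leukaemia: KMT2A is cut and fused in a class of leukaemias, those fusions recruit DOT1L, and KDM1A holds myeloid blasts in an immature state. The comparisons ask whether the RNAs of these writers and LSD erasers differ when the JmjC erasers are inhibited.

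Myeloid markers were present as the label implies. The 8 myeloid markers examined summed to between 456 and 643 CPM (counts scaled to library size) per library, against at most 8.23 CPM for the T or NK cell list and at most 2.21 CPM for each list of erythroid, megakaryocyte, B or plasma, epithelial and fibroblast markers. Library totals over the shared genes lay between 18781984 and 22192174 counts. Member counts lay between 157, for KMT5C in DMSO 24 h replicate 1, and 7112, for KMT2D in JIB-04 24 h replicate 1.

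In 3 of the 4 groups the 2 libraries differed along the base composition of the transcripts, which bears on every comparison. The GC content of the longest transcript ran from 33.0% for EED to 66.1% for KMT5C. The stretches that follow are 120 coding bases from the middle of the longest coding exon of the 3 members with the highest and the 3 with the lowest transcript GC content, 5′ to 3′ on the plus strand (hg38, GENCODE 29 models). Runs of 6 or more G or C bases are in capitals. KMT5C (chr19:55347141-55347260, exon 9 of 9), KMT2B (chr19:35720734-35720853, exon 3 of 37) and DOT1L (chr19:2226595-2226714, exon 27 of 28) are the GC-rich examples, with 76.7%, 73.3% and 71.7% GC in the window. EED (chr11:86276999-86277118, exon 10 of 12), SUZ12 (chr17:31998769-31998888, exon 16 of 16) and SETDB2 (chr13:49476698-49476817, exon 7 of 15) are the GC-poor ones, with 38.3%, 37.5% and 37.5%.
KMT5C: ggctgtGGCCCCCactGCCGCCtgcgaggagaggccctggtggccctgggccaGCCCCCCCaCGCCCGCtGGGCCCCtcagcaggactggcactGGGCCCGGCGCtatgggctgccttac
KMT2B: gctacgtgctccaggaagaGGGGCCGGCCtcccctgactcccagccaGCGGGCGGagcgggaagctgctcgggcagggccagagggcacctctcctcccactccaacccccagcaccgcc
DOT1L: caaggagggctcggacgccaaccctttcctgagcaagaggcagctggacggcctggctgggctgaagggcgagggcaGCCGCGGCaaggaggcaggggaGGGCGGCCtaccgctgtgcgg
EED: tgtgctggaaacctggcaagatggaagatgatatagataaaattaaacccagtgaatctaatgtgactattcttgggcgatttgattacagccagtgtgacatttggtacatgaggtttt
SUZ12: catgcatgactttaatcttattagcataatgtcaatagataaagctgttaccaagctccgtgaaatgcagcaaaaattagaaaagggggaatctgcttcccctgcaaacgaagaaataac
SETDB2: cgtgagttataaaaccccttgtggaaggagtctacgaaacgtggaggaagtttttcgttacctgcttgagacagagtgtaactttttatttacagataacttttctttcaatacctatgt
The KMT5C window holds 6 capital runs and the KMT2B and DOT1L windows 2 each, whereas the EED, SUZ12 and SETDB2 windows hold none.

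The same genes separated the replicates. In JIB-04 at 24 h, KMT5C had 11.9 and 8.93 CPM in replicates 1 and 2 while EED had 26.0 and 34.5 CPM. In DMSO at 24 h the order of the replicates was the other way round, with KMT5C at 7.78 and 15.1 CPM and EED at 32.2 and 28.0 CPM. Across the 36 members, the replicate difference followed GC content with a Spearman's rho of 0.912 in JIB-04 at 24 h, -0.658 in DMSO at 24 h, 0.841 in JIB-04 at 48 h and 0.146 in DMSO at 48 h, given as a description because the members share their libraries. Over 11838 well expressed genes rho was 0.833, -0.762, 0.779 and 0.0047 in the same order. Removing a smooth GC trend from each library reduced the SD of the members' log2 replicate difference to 0.112 in JIB-04 at 24 h, against 0.297 before removal, to 0.143 against 0.372 in DMSO at 24 h, and to 0.120 against 0.245 in JIB-04 at 48 h. In DMSO at 48 h it was 0.081 with and without the correction. Each comparison is therefore given from 2 fits, one without a GC correction and one with the GC trend removed, called the uncorrected and the GC-corrected fit.

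**Figure D1:**
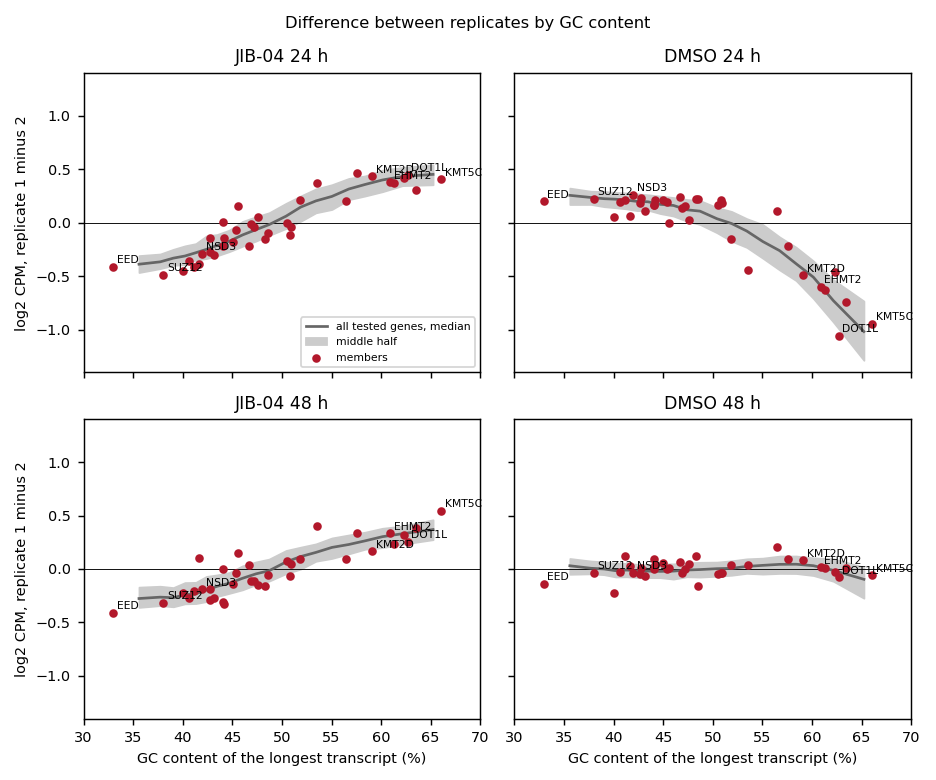
Difference between replicate 1 and replicate 2 in log2 CPM (vertical axis) against the GC content of the longest transcript in percent (horizontal axis), 1 panel per group. Red points are the 36 members. The grey line is the median and the band the interquartile range of the 11838 well expressed genes in bins of GC content, which the key calls all tested genes. The members follow the trend upward in both JIB-04 groups and downward in DMSO at 24 h, and lie flat in DMSO at 48 h.

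The writers differed widely in level. In TPM, which is per length and so allows genes to be compared, KDM1A had the highest mean, at 93.4 ± 9.52 TPM (SD over the 8 libraries). It was the highest member in 6 libraries, and NSD3 lay just above it in JIB-04 24 h replicate 2 (90.77 TPM for NSD3 and 90.53 TPM for KDM1A) and in JIB-04 48 h replicate 2 (83.52 TPM for NSD3 and 83.44 TPM for KDM1A). NSD2 (69.2 ± 8.87 TPM) and NSD3 (69.0 ± 12.2 TPM), dimethylating enzymes of H3 lysine 36, came next and did not differ beyond their spread. SETD5 (62.0 TPM), the H4 lysine 20 monomethylase KMT5A (53.2 TPM) and the Polycomb enzyme EZH2 (50.8 TPM) followed, each overlapping its neighbours. The rarest were SETDB2 (4.11 ± 0.56 TPM), below every other member in all 8 libraries, and SETD1B (7.71 ± 1.5 TPM). Paralogues were unequal: EZH2 exceeded EZH1 by 1.72-fold to 3.01-fold, and KDM1A exceeded KDM1B by 7.02-fold to 12.0-fold in every library.

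**Figure D2:**
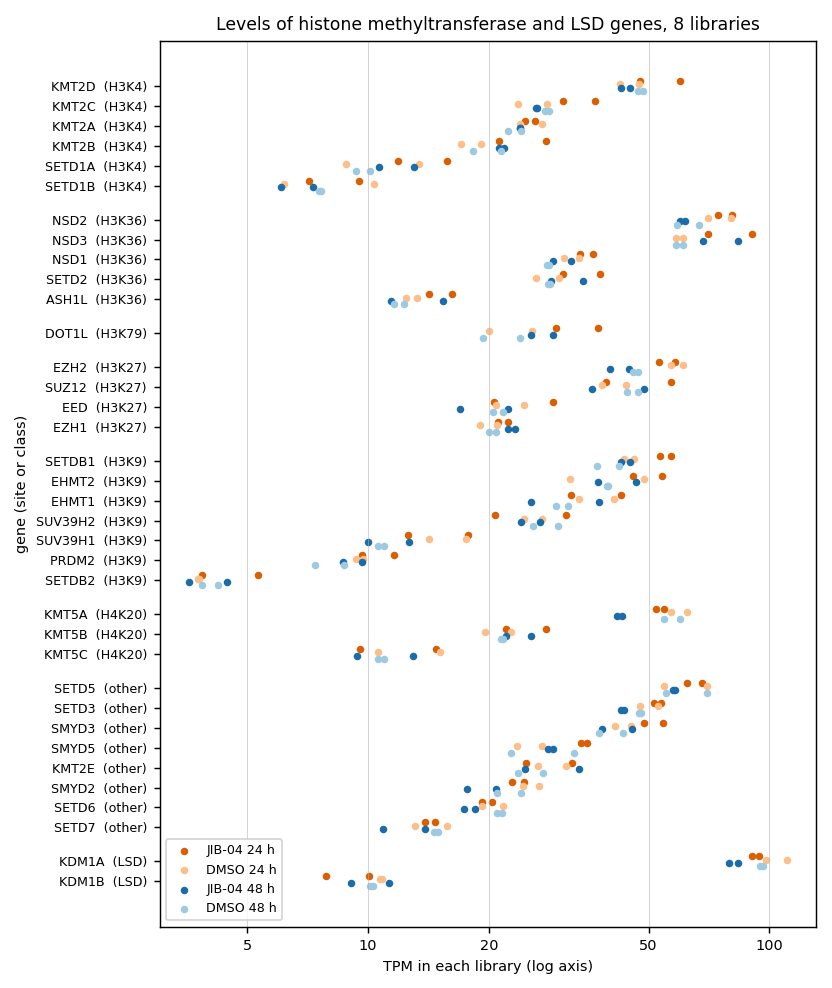
TPM of each of the 36 genes in each library on a log axis, grouped by the histone site, with 1 point per library coloured by group. KDM1A stands highest by its mean and SETDB2 lowest in every library, and the 4 groups overlap for most genes.

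JIB-04 left no member past the threshold in the uncorrected fit. With edgeR's quasi-likelihood test and an adjusted p under 0.05 over 15248 genes, 0 of 36 members passed at 24 h, where 0.00% of all genes passed, and 0 of 36 at 48 h, where 0.387% of all genes passed. At an unadjusted p under 0.05 there were 3 members at 24 h (SETDB1, NSD3 and KMT2C), beside 10.8% of all genes, and 0 at 48 h, beside 9.69%. DESeq2 called 0 members at 24 h and at 48 h, where it called 0.552% and 0.940% of all genes, and limma-voom called 0 members, beside 0.00% and 0.341%. The smallest adjusted p of a member was 0.33 at 24 h and 0.58 at 48 h. The standard errors of the members in this fit, 0.10 to 0.32 on the log2 scale, are as large as most of the differences, so the result does not show that the RNAs were equal.

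In the GC-corrected fit the members' standard errors were 0.049 to 0.12 and some members passed. At 24 h 7 of 36 passed, 6 higher and 1 lower with JIB-04, or 19.4% of the members beside 10.4% of all genes tested (5.46% higher and 4.91% lower). The genes higher with JIB-04 were NSD3, KMT2C, EHMT2, SETDB1, KMT2D and DOT1L, and the gene lower was EZH2. At 48 h 2 of 36 passed, NSD3 higher and SETD1B lower, or 5.56% beside 7.97% of all genes (4.62% higher and 3.35% lower). The median change of the members was 0.07 at 24 h and 0.03 at 48 h on the log2 scale, beside -0.02 and -0.01 over all tested genes. At 24 h both JIB-04 libraries lay above both DMSO libraries for 15 members and below them for 8, beside 24.9% and 28.1% of all genes. At 48 h the counts were 12 and 9, beside 27.8% and 30.7%. The members that passed with JIB-04 differed by 0.21 to 0.37 on the log2 scale. Removing the trend between replicates only, which keeps any GC difference between the groups, called 11 of 36 members at 24 h and 5 at 48 h, all higher with JIB-04, beside 13.7% and 13.0% of all genes. Members called only in that setting are not all named. Below, passing refers to the uncorrected and GC-corrected fits unless another setting is named. Leaving out JIB-04 24 h replicate 2 left 0 members past the threshold at 24 h, and the p-values of this fit do not count the degrees of freedom spent on the trend.

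**Figure D3:**
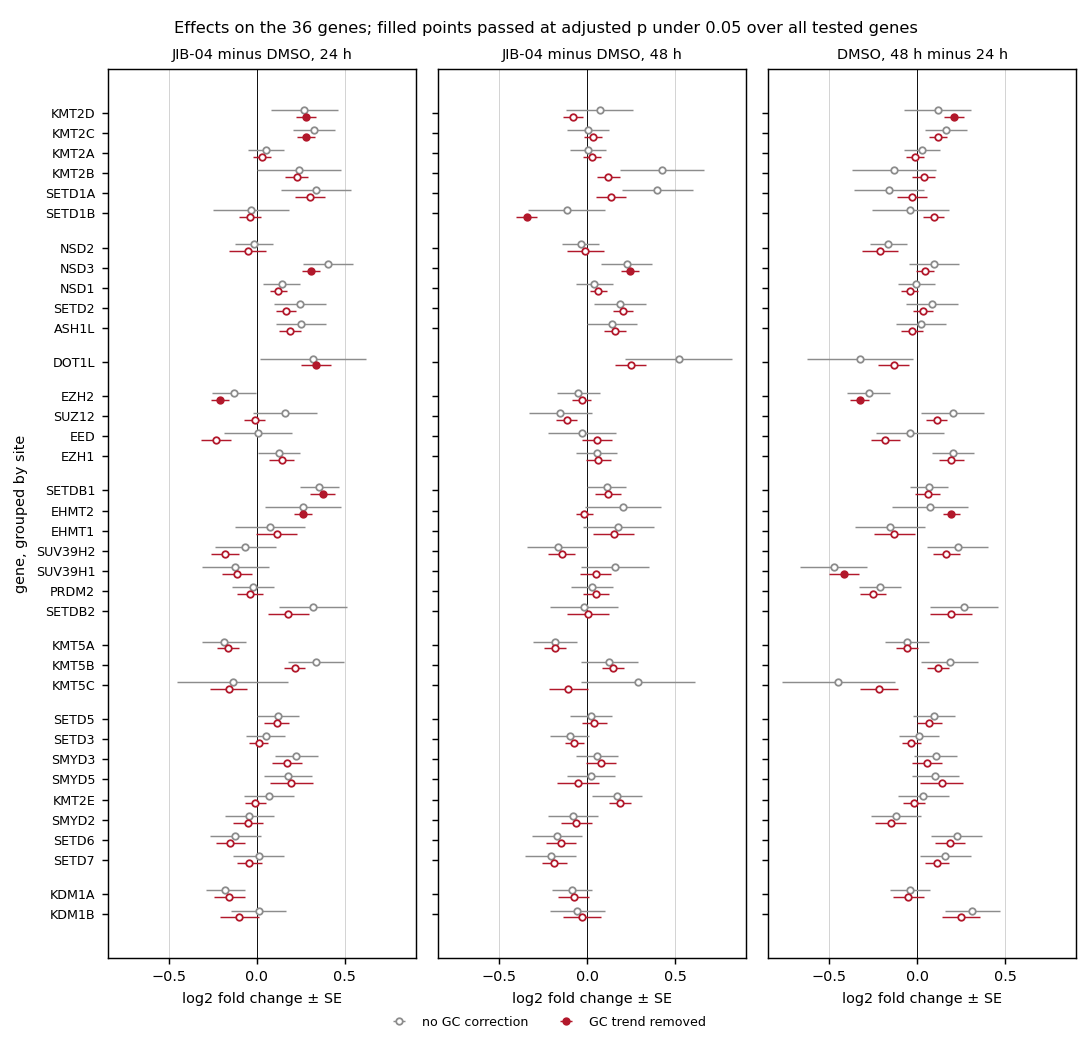
Log2 fold change with its SE (horizontal axis) for each of the 36 genes, grouped by site, for JIB-04 against DMSO at 24 h, JIB-04 against DMSO at 48 h, and DMSO at 48 h against DMSO at 24 h. Grey points are the uncorrected fit and red points the GC-corrected fit, and filled points passed: 7 genes at 24 h, 2 at 48 h and 4 between the DMSO groups, all in the GC-corrected fit.

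Among the 6 writers of H3 lysine 4, the enhancer monomethylases KMT2C and KMT2D were higher with JIB-04 at 24 h in the GC-corrected fit, and the promoter trimethylase SETD1B was lower at 48 h. KMT2C had 309.6 and 351 CPM with JIB-04 at 24 h, against 283 and 245 CPM in DMSO at 24 h. After removal of the GC trend these values were 322 and 329.8 CPM with JIB-04 and 273 and 263 CPM in DMSO, a log2 difference of 0.28 ± 0.05 (SE; adjusted p = 0.0115). The JIB-04 libraries lay above both DMSO libraries on either scale. KMT2C has partial copies elsewhere in the genome, among which reads may have been divided.

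The KMT2D result depended on the correction. Its CPM with JIB-04 at 24 h was 327 and 242, overlapping the 196 and 276 CPM in DMSO, and its uncorrected difference was 0.27 ± 0.19 (adjusted p = 0.671). After the trend was removed the values became 290.4 and 274 CPM with JIB-04 and 232 and 234 CPM in DMSO, no longer overlapping, with nearly the same difference of 0.28 ± 0.06 (adjusted p = 0.0172). Both KMT2C and KMT2D have long transcripts, and neither passed once a trend on transcript length was removed as well (adjusted p = 0.0713 and 0.0964). KMT2C also lost the call without JIB-04 24 h replicate 2 (adjusted p = 0.0791), and KMT2D without either JIB-04 24 h library (adjusted p up to 0.0974). At 48 h neither passed, with differences of 0.03 ± 0.05 and -0.08 ± 0.06.

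SETD1B had 45.9 and 39.1 CPM with JIB-04 at 48 h, against 46.2 and 45.9 CPM in DMSO at 48 h. On the GC-corrected scale it had 38.1 and 40.2 CPM with JIB-04 and 50.03 and 49.3 CPM in DMSO, and fell by 0.34 ± 0.06 on the log2 scale (adjusted p = 0.0109). The uncorrected difference was -0.12 ± 0.22, and it was -0.12 with an adjusted p of 0.224 when the trend was removed between replicates only, keeping the GC difference between the groups. The call was also lost without JIB-04 48 h replicate 1 or either DMSO 48 h library (adjusted p up to 0.107). Its paralogue SETD1A did not pass, with 69.9 and 52.4 CPM with JIB-04 at 24 h against 40.8 and 56.1 CPM in DMSO, and 63.5 and 51.0 CPM with JIB-04 at 48 h against 43.0 and 43.8 CPM in DMSO. The GC-corrected differences of SETD1A were 0.30 ± 0.08 at 24 h (adjusted p = 0.0508) and 0.14 ± 0.09 at 48 h (adjusted p = 0.359).

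KMT2A and KMT2B, the paralogues that act at developmental and HOX genes, did not pass at either time. KMT2A lay within a narrow range, with 223 and 225 CPM with JIB-04 at 24 h against 226 and 206 CPM in DMSO, and 212 and 229 CPM with JIB-04 at 48 h against 217 and 223 CPM in DMSO. Its GC-corrected differences were 0.03 ± 0.05 at each time. KMT2B had 91.8 and 74.4 CPM with JIB-04 at 24 h against 52.6 and 88.1 CPM in DMSO, and 97.9 and 74.8 CPM with JIB-04 at 48 h against 64.5 and 64.0 CPM in DMSO. The 48 h groups did not overlap, and the difference was 0.43 ± 0.24 in the uncorrected fit and 0.12 ± 0.06 in the GC-corrected fit (adjusted p = 0.614 and 0.276).

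Among the 5 writers of H3 lysine 36, NSD3 passed at both times. NSD3, a lysine 36 dimethylase, had 222 and 271 CPM with JIB-04 at 24 h against 204 and 169.6 CPM in DMSO, and 218 and 249 CPM with JIB-04 at 48 h against 197 and 202 CPM in DMSO. Both JIB-04 libraries lay above both DMSO libraries at each time. In the GC-corrected fit the differences were 0.31 ± 0.05 at 24 h (adjusted p = 0.00746) and 0.24 ± 0.05 at 48 h (adjusted p = 0.0189), beside 0.40 ± 0.14 and 0.22 ± 0.14 without the correction. NSD3 was the only member that passed in each of the 7 GC-corrected settings with all 8 libraries at both times. Its 24 h result did not pass once JIB-04 24 h replicate 2 was left out, nor its 48 h result without any 1 of the 4 libraries of that time (adjusted p up to 0.0642 and 0.173).

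SETD2, which trimethylates lysine 36 behind elongating polymerase, had 159 and 192 CPM with JIB-04 at 24 h against 159.5 and 136 CPM in DMSO. At 48 h it had 160.1 and 196 CPM with JIB-04 against 157 and 156 CPM in DMSO. Its GC-corrected differences were 0.17 ± 0.06 (adjusted p = 0.0943) and 0.20 ± 0.06 (adjusted p = 0.0591), positive at both times without passing. ASH1L, another lysine 36 dimethylase, had 0.19 ± 0.06 and 0.16 ± 0.06, and NSD1 0.12 ± 0.05 and 0.06 ± 0.05, none of which passed. NSD2 was -0.05 ± 0.10 and -0.01 ± 0.10.

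DOT1L, the enzyme that methylates H3 lysine 79, spread widely between replicates. It had 106 and 77.2 CPM with JIB-04 at 24 h against 47.6 and 99.0 CPM in DMSO, and the groups overlapped. On the GC-corrected scale it had 89.7 and 87.9 CPM with JIB-04 against 62.9 and 77.0 CPM in DMSO, a difference of 0.34 ± 0.09 (adjusted p = 0.0385). That call remained in 1 of the 8 fits that left out a library, the one without DMSO 24 h replicate 2, with adjusted p up to 0.145. At 48 h DOT1L had 91.3 and 76.7 CPM with JIB-04 against 56.9 and 60.2 CPM in DMSO, without overlap. The 48 h difference was 0.52 ± 0.30 in the uncorrected fit (adjusted p = 0.629) and 0.25 ± 0.09 in the GC-corrected fit (adjusted p = 0.115). The authors' deposited table gave DOT1L a log2 fold change of 0.51 at 48 h with an adjusted p of 0.0104. A fit of the 4 libraries at 48 h alone also called it (adjusted p = 0.0408), as did removal of the trend between replicates only (0.52, adjusted p = 0.00664). The DOT1L transcript is 62.7% GC, and a GC difference between the groups' libraries at 48 h and an effect of JIB-04 on GC-rich genes cannot be told apart here.

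Of the 4 genes of the Polycomb core, which methylates H3 lysine 27, EZH2 was lower with JIB-04 at 24 h in the GC-corrected fit. EZH2, the catalytic subunit abundant in dividing cells, had 94.1 and 104 CPM with JIB-04 at 24 h against 115 and 101 CPM in DMSO. With the GC trend removed the values were 99.1 and 93.5 CPM with JIB-04 and 111 and 111 CPM in DMSO, and EZH2 fell by 0.21 ± 0.05 on the log2 scale (adjusted p = 0.0371). This call was lost when any 1 of the 8 libraries was left out, with adjusted p between 0.0560 and 0.215. It was also lost with the trend removed between replicates only, where the difference was -0.13 (adjusted p = 0.139). At 48 h EZH2 had 81.0 and 92.0 CPM with JIB-04 against 88.1 and 90.9 CPM in DMSO, a GC-corrected difference of -0.03 ± 0.05.

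EZH1, the paralogue that predominates in resting cells, had 45.8 and 45.8 CPM with JIB-04 at 24 h against 44.4 and 39.5 CPM in DMSO, and 51.5 and 49.0 CPM with JIB-04 at 48 h against 47.5 and 49.2 CPM in DMSO. Its GC-corrected differences were 0.14 ± 0.07 and 0.06 ± 0.07, and neither passed. EED, which reads the mark, was -0.23 ± 0.08 at 24 h (adjusted p = 0.113), and SUZ12, the scaffold, was -0.01 ± 0.06. In the uncorrected fit EED was 0.007 ± 0.19 and SUZ12 0.16 ± 0.18 at 24 h, so the EED value depended on the correction. SUZ12 has a partial pseudogene copy, among which reads may have been divided. The EZH2 to EZH1 ratio of TPM was 2.51 and 2.61 with JIB-04 at 24 h against 2.90 and 3.01 in DMSO. At 48 h it was 1.72 and 2.005 with JIB-04 against 2.20 and 2.35 in DMSO. These ratios are of TPM without GC correction and were not tested. In CPM at 48 h EZH2 and EZH1 each overlapped between the groups, though not on the GC-corrected scale, and neither passed in either fit.

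Proliferation genes moved in the same comparison as EZH2. In the GC-corrected fit 13 of 18 replication and mitosis genes were lower with JIB-04 at 24 h and 0 were higher, with a median change of -0.31, where 4.91% of all genes were lower. The uncorrected fit called 0 of the 18, with a median of -0.29. Their summed level was 4895 and 4834 CPM with JIB-04 at 24 h against 5918 and 5956 CPM in DMSO. With JIB-04 at 48 h the GC-corrected fit called 2 of the 18 higher and 0 lower, beside 4.62% of all genes higher. Their median change there was 0.13, and the GC-corrected means of EZH2 were 86.9 CPM with JIB-04 and 88.6 CPM in DMSO. When the JIB-04 effects at 48 h and 24 h were compared, 10 of the 18 passed, all with a higher effect at 48 h, beside 1.06% of all genes. The part of proliferation in the EZH2 result was not tested.

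Of the 7 writers of H3 lysine 9, SETDB1 and EHMT2 were higher with JIB-04 at 24 h in the GC-corrected fit. SETDB1, the trimethylase that silences retroelements with TRIM28, had 117 and 120.4 CPM with JIB-04 at 24 h against 99.1 and 87.0 CPM in DMSO. With the GC trend removed it had 115.2 and 125.4 CPM with JIB-04 against 99.1 and 86.6 CPM in DMSO, so its replicates did not come closer. The difference of SETDB1 was 0.37 ± 0.07 in the GC-corrected fit (adjusted p = 0.0142). It was 0.35 ± 0.11 in the uncorrected fit, where SETDB1 had the smallest unadjusted p of the members (0.0115). At 48 h SETDB1 had 107 and 104 CPM with JIB-04 against 96.3 and 98.6 CPM in DMSO, a GC-corrected difference of 0.12 ± 0.07 that did not pass.

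EHMT2 (G9a), which with EHMT1 dimethylates lysine 9 in active chromatin, had 127 and 97.6 CPM with JIB-04 at 24 h against 74.4 and 113 CPM in DMSO. With the GC trend removed it had 110.2 and 111 CPM with JIB-04 against 92.9 and 91.6 CPM in DMSO, a difference of 0.26 ± 0.05 (adjusted p = 0.0131). Together with NSD3, SETDB1 and EHMT2 were the members that passed at 24 h in each of the 7 GC-corrected settings with all libraries. SETDB1 lost the call without JIB-04 24 h replicate 2 (adjusted p = 0.0989), and EHMT2 without either JIB-04 24 h library (adjusted p up to 0.0797). At 48 h EHMT2 had 126 and 100.05 CPM with JIB-04 against 98.9 and 97.8 CPM in DMSO, and its direction depended on the correction: 0.20 ± 0.22 without it, -0.015 ± 0.049 with it, and 0.19 (adjusted p = 0.0318) with the trend removed between replicates only.

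The remaining lysine 9 genes did not pass with JIB-04. SUV39H1, a trimethylase of pericentric heterochromatin, had 34.9 and 25.3 CPM with JIB-04 at 24 h against 30.3 and 35.2 CPM in DMSO, and 29.4 and 23.3 CPM with JIB-04 at 48 h against 24.3 and 22.8 CPM in DMSO. Its GC-corrected differences were -0.11 ± 0.09 and 0.05 ± 0.09. Its paralogue SUV39H2 was -0.18 ± 0.08 and -0.14 ± 0.08. EHMT1, SETDB2 and PRDM2 lay between -0.04 and 0.18 at both times.

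**Figure D4:**
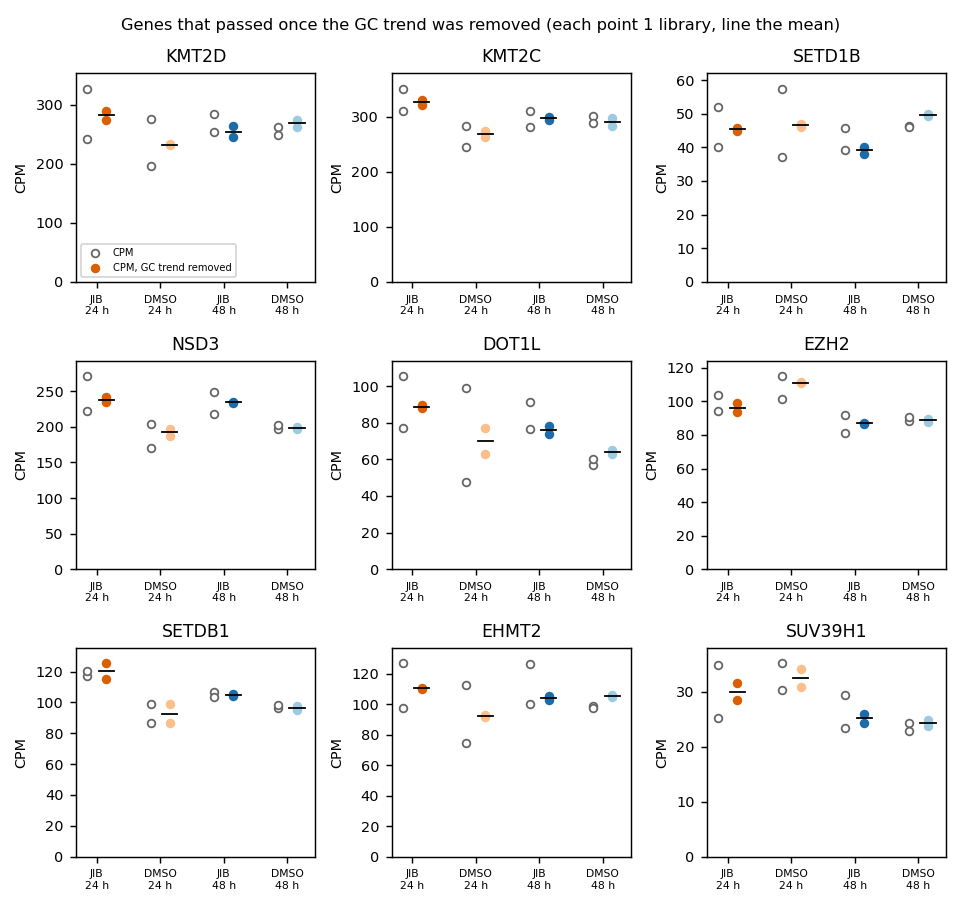
CPM per library of the 9 genes that passed in the GC-corrected fit, with JIB-04 left of DMSO at 24 h and at 48 h. Open circles are CPM as measured, filled circles CPM with the GC trend removed, and the line their mean of 2 libraries. Removal of the trend draws the replicates together for KMT2D, DOT1L, EHMT2 and EZH2, while SETDB1 changes little in level.

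The 3 writers of H4 lysine 20 did not pass. KMT5A, the monomethylase active around mitosis, had 63.2 and 54.3 CPM with JIB-04 at 24 h against 63.4 and 70.4 CPM in DMSO, and 58.5 and 54.9 CPM with JIB-04 at 48 h against 65.0 and 63.5 CPM in DMSO. Both JIB-04 libraries lay below both DMSO libraries at each time, and the GC-corrected differences were -0.16 ± 0.06 (adjusted p = 0.137) and -0.18 ± 0.06 (adjusted p = 0.115). KMT5B, which adds further methyl groups, had 47.5 and 60.8 CPM with JIB-04 at 24 h against 45.7 and 40.0 CPM in DMSO, and 48.2 and 58.1 CPM with JIB-04 at 48 h against 48.3 and 49.2 CPM in DMSO. Its GC-corrected differences were 0.21 ± 0.06 (adjusted p = 0.0524) and 0.15 ± 0.06 (adjusted p = 0.164). KMT5C, its GC-rich paralogue, was -0.16 ± 0.11 and -0.11 ± 0.11.

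The other SET and SMYD genes, which methylate mostly non-histone proteins or, for KMT2E and SETD5, have disputed activity, counted 8, and 0 passed with JIB-04 in either fit. The smallest adjusted p among them in the GC-corrected fit was 0.237 at 24 h, for SMYD3 (0.17), and 0.0947 at 48 h, for KMT2E (0.19 ± 0.06). SETD3, the actin histidine methyltransferase, and SMYD2 lay within 0.08 of no change at both times.

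The LSD demethylases did not pass either. KDM1A, which removes mono- and dimethyl groups from H3 lysine 4 in the CoREST complex, had 181 and 196 CPM with JIB-04 at 24 h against 229 and 197 CPM in DMSO, and 191 and 200.1 CPM with JIB-04 at 48 h against 205 and 209.8 CPM in DMSO. Its GC-corrected differences were -0.16 ± 0.09 (adjusted p = 0.292) and -0.07 ± 0.09 (adjusted p = 0.648). KDM1B, which acts within transcribed genes, was -0.10 ± 0.11 and -0.03 ± 0.11.

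The JIB-04 effect at 48 h was set against that at 24 h in a test of the difference itself. In the uncorrected fit 0 of 36 members passed, beside 0.00% of all genes, and 0 had an unadjusted p under 0.05, beside 5.23%. DESeq2 and limma-voom called 0 members, beside 0.0457% and 0.00656% of all genes. In the GC-corrected fit 0 of 36 passed, beside 1.06% of all genes, and 8 had an unadjusted p under 0.05, beside 15.5%. Removing the trend between replicates only called 1 member, KMT2C, with a lower effect at 48 h, beside 4.35% of all genes. KMT2D had the smallest adjusted p (0.0750), its effect being lower at 48 h than at 24 h by a log2 difference of -0.36 ± 0.08. The 6 lysine 4 writers had a median difference of -0.21 in this fit, with KMT2A at -0.00048, and a median of -0.06 in the uncorrected fit, where KMT2B (0.19) and SETD1A (0.06) were positive. None passed in either fit. Genes called at 1 time are thus not shown to respond differently at the other.

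In DMSO alone, 48 h against 24 h, EZH2 and SUV39H1 were lower at 48 h in the GC-corrected fit, and EHMT2 and KMT2D were higher. The uncorrected fit called 0 of 36 members, beside 0.426% of all genes, and 1 (SUV39H1) had an unadjusted p under 0.05, beside 12.2%. DESeq2 and limma-voom called 0 members, beside 1.42% and 0.374% of all genes. The GC-corrected fit called 4 of 36, or 11.1% beside 13.5% of all genes (6.72% higher and 6.73% lower). Removing the trend between replicates only called 3, EZH2, SUV39H1 and SUZ12, beside 15.6%. EZH2 had 88.1 and 90.9 CPM at 48 h against 115 and 101 CPM at 24 h, and fell by 0.33 ± 0.05 (adjusted p = 0.00447). SUV39H1 had 24.3 and 22.8 CPM at 48 h against 30.3 and 35.2 CPM at 24 h, and fell by 0.42 ± 0.09 (adjusted p = 0.0146). Neither gene overlapped between the times, and both passed in each of the 7 GC-corrected settings. EZH2 lost the call without DMSO 48 h replicate 1 (adjusted p = 0.0648), and SUV39H1 without either DMSO 48 h library (adjusted p up to 0.12). EHMT2 (0.19 ± 0.05, adjusted p = 0.0325) and KMT2D (0.21 ± 0.06, adjusted p = 0.0406) each kept the call in 2 of the 8 fits that left out a library, those without a JIB-04 48 h library. Without the correction EHMT2 and KMT2D each overlapped between the DMSO groups, with differences of 0.07 ± 0.22 and 0.12 ± 0.19. With the trend removed between replicates only, their differences were 0.10 and 0.14 (adjusted p = 0.2 and 0.136). The comparison of the DMSO groups shares the DMSO 24 h libraries with that of JIB-04 at 24 h.

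Of the same 18 proliferation genes, 17 were lower in DMSO at 48 h in the GC-corrected fit, where 6.73% of all genes were lower, and 0 passed in the uncorrected fit. Their median changes were -0.45 and -0.44 in these fits, with a summed level of 4357 and 4404 CPM at 48 h against 5918 and 5956 CPM at 24 h. Their part in the EZH2 and SUV39H1 values was not tested. The EZH2 promoter is shown because E2F factors are textbook regulators of EZH2 and of replication genes. It is the RefSeq window from 250 bases before to 50 bases after the start (GRCh38.p14, chr7:148884242-148884541, minus strand), 5′ to 3′, with the match to an E2F-type motif in capitals.
EZH2 promoter: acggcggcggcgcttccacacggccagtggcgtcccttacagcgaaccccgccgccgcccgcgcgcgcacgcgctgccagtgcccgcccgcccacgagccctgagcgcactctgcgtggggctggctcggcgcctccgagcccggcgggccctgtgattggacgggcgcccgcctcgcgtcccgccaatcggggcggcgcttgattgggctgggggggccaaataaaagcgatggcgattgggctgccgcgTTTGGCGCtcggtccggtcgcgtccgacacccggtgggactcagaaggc
The motif searched was TTT, a pair of bases each C or G, and CGC, on both strands. It was found in promoters of 5 of the 33 members with a RefSeq entry (NSD2, KDM1B, EZH2, SUZ12 and EZH1), or 15.2%. Among all genes with a RefSeq promoter, expressed in these cells or not, the share was 3.99%. These shares are over unlike sets, because every member was expressed, and were not compared by a test. DOT1L, NSD3 and SETD1B had no entry. SUV39H1 had no match in its window. The members with a match did not move 1 way in DMSO at 48 h against 24 h. The GC-corrected means of KDM1B (24.8 against 20.9 CPM), SUZ12 (150.3 against 139.2 CPM) and EZH1 (47.9 against 41.9 CPM) were higher. Those of NSD2 (219 against 253.5 CPM) and EZH2 were lower. A part of E2F factors in these values was not tested. A match is a stretch of letters and not a binding site.

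The partner subunits of these enzymes were examined by list, each with counts from the GC-corrected fit, since the uncorrected fit called 0 partners in any list or comparison. These calls were not recomputed with single libraries left out. At 24 h the share of all genes that passed was 10.4%, and at 48 h 7.97%. Of the 9 accessory subunits of Polycomb repressive complex PRC2, 3 were higher and 1 lower with JIB-04 at 24 h, and 2 were higher at 48 h. PHF1, a subunit that reads lysine 36 methylation, had GC-corrected values of 32.9 and 37.7 CPM with JIB-04 at 24 h against 26.1 and 22.02 CPM in DMSO (0.55 ± 0.10, adjusted p = 0.0109), and 36.004 and 34.2 CPM with JIB-04 at 48 h against 25.2 and 25.03 CPM in DMSO (0.48 ± 0.10, adjusted p = 0.0188). JARID2, a JmjC-family protein without demethylase activity that guides PRC2, had 185 and 189 CPM with JIB-04 at 24 h against 152 and 164 CPM in DMSO (0.24 ± 0.06, adjusted p = 0.0271), and 189 and 181 CPM with JIB-04 at 48 h against 138 and 144 CPM in DMSO (0.39 ± 0.06, adjusted p = 0.00434). RBBP7, a histone chaperone of PRC2 and of other complexes, was lower at 24 h (-0.32 ± 0.05, adjusted p = 0.0091).

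Of the 7 partners of DOT1L and of the super elongation complex, 3 were higher with JIB-04 at 24 h and 1 at 48 h. ELL, an elongation factor fused to KMT2A in leukaemia, had 30.6 and 27.7 GC-corrected CPM with JIB-04 at 24 h against 19.98 and 24.2 CPM in DMSO (0.39 ± 0.10, adjusted p = 0.0371). At 48 h ELL had 35.4 and 33.5 CPM with JIB-04 against 23.8 and 23.0 CPM in DMSO (0.56 ± 0.10, adjusted p = 0.0104). ELL in CPM without the correction overlapped between the groups at 24 h, though not at 48 h, so its separation at 24 h depended on the correction. AFF4, the scaffold of the complex, and MLLT10, a DOT1L cofactor, were each higher by 0.27 ± 0.05 at 24 h (adjusted p = 0.013 and 0.0162).

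Of the 12 COMPASS subunits, which assemble the lysine 4 writers, 1 passed at 24 h, NCOA6 (0.42 ± 0.08, adjusted p = 0.012), and 0 at 48 h. Of the 6 partners and readers of lysine 36, BRPF1 was higher at 24 h (0.29 ± 0.08) and at 48 h (0.31 ± 0.08), and the readers MORF4L1 (-0.25 ± 0.06) and PSIP1 (-0.33 ± 0.08) were lower at 24 h. Of the 11 CoREST genes tested, out of 12, HDAC1 (-0.32 ± 0.06) and HDAC2 (-0.38 ± 0.06) were lower at 24 h and GSE1 (-0.33 ± 0.06) at 48 h. In CPM without the correction, BRPF1, MORF4L1, PSIP1 and HDAC2 overlapped between the groups at 24 h. Of the 9 readers and partners of lysine 9, 0 passed at 24 h and CBX5, a heterochromatin protein, was lower at 48 h (-0.27 ± 0.05, adjusted p = 0.0176). CBX5 was the partner that passed in the test of the difference between the times, with -0.39 ± 0.08 (adjusted p = 0.0475).

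In DMSO at 48 h against 24 h, 3 COMPASS subunits (HCFC1, WDR82 and PAGR1), 2 PRC2 subunits (RBBP7 and PHF19) and 2 lysine 9 partners (ZNF644 and CBX1) were lower and 0 of these lists higher. In the other lists AFF1, HDGFL2, PHF19, ZNF217 and RCOR1 were lower and MLLT6, MLLT10 and RCOR2 higher, where 13.5% of all genes passed. In CPM without the correction, HCFC1, ZNF644 and HDGFL2 overlapped between the times.

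The authors' deposited table gave 0 of 36 members an adjusted p under 0.05 at 24 h, where 0.0910% of its genes had one, and 1 of 36, DOT1L, at 48 h, where 3.43% did. An unadjusted p under 0.05 was held in the authors' deposited table by 0 members at 24 h and by 4 at 48 h, DOT1L, KMT2B, SETD1A and NSD3, all higher with JIB-04. The authors' deposited log2 fold changes of the members ran from -0.20 to 0.39 at 24 h and from -0.21 to 0.51 at 48 h. Of those 4, DOT1L, KMT2B and SETD1A have transcripts of over 62% GC, and NSD3, at 42.0% GC, was the one that also passed in the GC-corrected fit at 48 h. A GC difference between libraries and an effect of JIB-04 on GC-rich genes cannot be told apart here, and the part of either was not tested.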

How the data were processed

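Per the labels' protocols, TRIzol was used to isolate RNA, and a TruSeq Stranded mRNA kit to make libraries. The authors deposited 1 table per time point with an expected count per gene and library, as RSEM estimates it, and TPM values, per the file headers. The authors' deposited tables also hold their own comparison, with log2 fold changes and raw and adjusted p-values, per the file headers. Per the submitters' processing notes, Cutadapt, STAR 2.6.1 and RSEM were used with hg38. Neither the tool of the authors' comparison nor any strand setting of the counting is stated (not given in the sources used here), and reads of genes and their antisense partners may be mixed.

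Expected counts were rounded to whole numbers and the 24077 genes in both tables kept. Genes left out held 0.00581% of the counts. A single edgeR 4.0.16 fit (R 4.3.3) took all 8 libraries, with filterByExpr (minimum count 10, minimum total 15), TMM scaling, 1 mean per group and 4 residual degrees of freedom. The quasi-likelihood F test was two-sided, with Benjamini-Hochberg adjustment over 15248 genes and a threshold of 0.05. CPM uses TMM-scaled library sizes, except in the sums of cell type markers, which use library totals over the shared genes. The GC-corrected fit adds offsets: for each library a lowess trend (span 0.4, genes with mean log2 CPM of at least 1) of its deviation from the mean of all libraries on the GC content of the longest GENCODE 29 transcript. DESeq2 1.42.0, limma 3.58.1, left-out libraries, other scalings and other forms of the trend, the last chosen after seeing the data, were alternatives. The fits were tested on simulated data, with changes planted at 48 h only and larger than those of the members that passed. The simulated GC trend was the one estimated from these libraries. That test does not bear on changes as small as those of the members. Sequences come from RefSeq promoters (GRCh38.p14), which matched 33 of 36 members, and GENCODE 29 transcripts.

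The members and the lists were chosen with earlier results of these data known. Values in every library are given for members with an adjusted p under 0.05 in either fit, the 4 smallest unadjusted p-values of each JIB-04 comparison in the uncorrected fit, and the leading enzyme of each site. Partners are named where they passed, at most 3 per list and comparison.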

Additional observations from a re-analysis of the deposited data

How the results depend on the processing

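With the GC trend removed, 7 members passed at 24 h, 2 at 48 h and 4 between the DMSO groups, against 0 without it. Adding the replicate block to that fit gave 6, 2 and 3, with EZH2 at 24 h (adjusted p = 0.0526) and KMT2D in DMSO (adjusted p = 0.0590) no longer passing. With all 8 libraries and no GC correction the replicate block called 0 members in each comparison, as did DESeq2, limma-voom, DESeq2 size factors, library totals and no filter, and limma on log2(TPM + 1) or log2(TPM + 0.1) at 24 h and 48 h. The fit of the 48 h libraries alone called 1. Replicate differences of the groups were correlated at -0.668 to 0.669, and at -0.282 to 0.255 once the GC trend was removed. Because they shrank with the trend, these correlations cannot show whether the numbers pair the samples. A block with the DMSO 24 h numbers crossed, chosen after seeing the data, called 0 members in each comparison. In the fits that left out 1 library, with or without the GC correction, 0 to 7 members passed at 24 h, 0 to 4 at 48 h, 0 in the difference between the effects and 0 to 5 in DMSO. The other forms of the GC trend were also chosen after seeing the data. At 24 h a lowess span of 0.2 gave 8 members, a span of 0.7 gave 9, the mean GC content of a gene's transcripts 11, removal between replicates only 11 and removal of GC and length trends 4. At 48 h the same settings gave 2, 2, 3, 5 and 2, in the difference between the effects 0, 0, 0, 1 (KMT2C) and 0, and in DMSO 5, 4, 2, 3 and 4. The following values changed direction. KMT2A at 24 h was -0.0043 with the mean GC content and -0.077 with GC and length removed, and -0.012 to 0.12 with a library left out. KMT2A at 48 h was -0.0082 with DESeq2 size factors, -0.023 with library totals, -0.0016 with no filter, -0.0046 with the 48 h libraries alone, -0.0071 with DESeq2, and -0.050 to 0.056 with a library left out. EHMT2 at 48 h was -0.015 with the GC trend removed, with or without the replicate block, -0.0098 and -0.0091 at spans of 0.2 and 0.7, -0.0083 with GC and length removed, and -0.031 to 0.36 with a library left out. With a library left out, DOT1L at 24 h ran from -0.11 to 0.94, EHMT2 at 24 h from -0.0056 to 0.60, EZH1 at 48 h from -0.0062 to 0.091, EZH2 at 48 h from -0.14 to 0.015, and in DMSO EHMT2 from -0.20 to 0.40 and KMT2D from -0.11 to 0.39. Without DMSO 24 h replicate 1 the uncorrected values of DOT1L and EHMT2 at 24 h and of EHMT2 and KMT2D in DMSO were negative, and the GC-corrected values were positive. The causes were not tested. A group reduced to 1 library is assumed to vary like the others.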
